A study of Mus musculus with 8 samples.

Results

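A set of 9 genes of the neural lineage was read for trimethylation of histone H3 at lysine 4 (H3K4me3) at their transcriptional start sites (TSSs) in mouse embryonic stem cells (mESCs) and in the pancreatic islet-like endocrine cells (PILECs) grown from them. The genes were chosen by name, with no threshold on a measured value but with earlier results of these data known, and are 9 of the 26226 genes with a start that could be read. Sox1, Nes, Neurog1, Neurog2 and Olig2 stand for neural progenitors, and Tubb3, Dcx, Map2 and Stmn2 for neurons. They serve to ask how much neural character the PILECs carry and whether it depends on menin, the product of Men1.

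H3K4me3 marks the starts of genes that are active or poised for activity, and in embryonic stem cells many silent developmental genes with CG-rich promoters carry it together with the repressive mark H3K27me3. MLL-family enzymes write this mark at part of the genes, and menin is one of the proteins that work with them. Cultures differentiated towards islet cells by way of nestin-positive progenitors are known to give neural cells as well, and neurons and islet endocrine cells use many of the same regulators.

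ChIP-Seq with an antibody to H3K4me3 was done once in each of 4 kinds of cells, namely the mESC line TC-1, which is wild-type (wt), the menin-null mESC line 3.2N, in which Men1 is knocked out, and the PILECs made in vitro from each line. Input chromatin was sequenced from each as well, so there were 8 libraries in all and no replicates. Both lines have the genetic background 129S6/SvEvTac, and each genotype is a single line. The mESCs had been kept with LIF on irradiated mouse embryonic fibroblasts, which were removed before use. A tag is a 36-bp read with its position in mm9. Tags were counted within 1 kb to each side of a TSS and scaled to tags per 1000000 tags of the library (RPM). Intervals in square brackets are exact 95% limits that cover counting error alone, so each comparison is one of libraries and not of conditions. A ratio of 2 libraries was called higher or lower where it was at least 2-fold and its interval left out 1. Fewer marked cells and less mark per cell cannot be told apart in such bulk chromatin.

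The H3K4me3 libraries of wt and menin-null mESCs held 2432377 and 3517028 tags, and those of wt and menin-null PILECs 18773635 and 17682677. The inputs held 3744616 to 19016697. The mESC values therefore rest on far fewer tags. Of the H3K4me3 tags, 51.4% lay within 1 kb of a TSS in menin-null mESCs and 40.1% to 43.5% in the other 3 libraries, a difference that moves every ratio with menin-null mESCs. The median log2 ratio over all genes was -0.33 for menin-null PILECs over menin-null mESCs and 0.21 for menin-null over wt mESCs, and became 0.03 and -0.03 when libraries were scaled by their tags near TSSs. Of the input tags, 7.57% and 7.05% lay within 1 kb of a TSS in wt and menin-null mESCs, and 4.73% and 4.90% in the PILECs. Over exons 3 to 8 of Men1 (chr19:6336725-6338961) the inputs held 17 tags in wt mESCs and 22 in wt PILECs, and 0 in both menin-null inputs, where 0 allows up to 3 tags. Pluripotency genes were called lower in PILECs for 12 of 14 listed genes in wt and 13 of 14 in menin-null cells.

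The starts of the 9 genes ranged from CG-dense to CG-poor, which is shown here by the 250 bases before the 5′-most annotated start of 4 of them, since these 4 had the largest log2 ratios in either direction between wt PILECs and wt mESCs. Each is from the mm9 genome sequence and is written 5′ to 3′ on the strand of the gene, with every CG in capitals. The Sox1 stretch (chr8:12395269-12395518, plus strand) has 29 CGs, the Map2 stretch (chr1:66221597-66221846, plus strand) 24, the Tubb3 stretch (chr8:125935074-125935323, plus strand) 11 and the Dcx stretch (chrX:140367855-140368104, minus strand) 2.
Sox1: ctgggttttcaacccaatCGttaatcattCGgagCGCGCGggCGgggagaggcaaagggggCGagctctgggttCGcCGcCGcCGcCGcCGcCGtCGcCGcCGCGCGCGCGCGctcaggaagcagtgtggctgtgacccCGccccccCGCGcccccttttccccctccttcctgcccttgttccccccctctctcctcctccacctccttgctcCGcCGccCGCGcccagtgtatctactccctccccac
Map2: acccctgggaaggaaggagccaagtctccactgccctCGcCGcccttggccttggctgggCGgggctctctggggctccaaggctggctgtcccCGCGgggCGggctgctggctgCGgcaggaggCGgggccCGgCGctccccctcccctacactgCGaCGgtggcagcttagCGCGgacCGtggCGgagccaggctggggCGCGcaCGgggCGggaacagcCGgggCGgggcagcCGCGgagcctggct
Tubb3: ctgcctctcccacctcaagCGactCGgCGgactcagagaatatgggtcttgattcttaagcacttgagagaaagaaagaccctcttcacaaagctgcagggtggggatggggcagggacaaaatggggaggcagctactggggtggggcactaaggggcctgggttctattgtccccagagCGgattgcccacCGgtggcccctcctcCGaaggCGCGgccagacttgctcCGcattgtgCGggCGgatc
Dcx: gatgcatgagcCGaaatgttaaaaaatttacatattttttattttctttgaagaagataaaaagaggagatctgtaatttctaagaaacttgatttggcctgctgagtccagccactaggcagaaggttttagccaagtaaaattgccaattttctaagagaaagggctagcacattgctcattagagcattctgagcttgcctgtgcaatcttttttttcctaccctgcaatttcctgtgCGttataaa
Over the same stretch of all 26226 genes the median was 7 CGs, with quartiles of 2 and 17. Nes had 14, Neurog1 27, Neurog2 8, Olig2 22 and Stmn2 4. The letters TATAAA, searched on both strands, were in 2 of the 9 stretches (Olig2 and Dcx) and in 12.1% of all stretches. GGGCGG was in 7 of the 9 and in 37.2% of all, and CCAAT in 5 of the 9 and in 34.6% of all. Neither CAGCTG nor CAGATG was in any of the 9, against 12.1% and 13.5% of all.

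In the windows in which tags were counted, 1 kb to each side of the TSS, the ratio of observed to expected CG was 0.86 at Neurog2, 0.76 at Sox1, 0.69 at Nes, 0.68 at Neurog1 and 0.68 at Olig2. It was 0.54 at Map2, 0.52 at Tubb3, 0.32 at Stmn2 and 0.22 at Dcx. The 5 progenitor genes thus had a higher ratio than the 4 neuron genes, without overlap, and the median over all genes was 0.46. Only Dcx and Stmn2 lay below that median.

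Of the 4 neuron genes, 3 were called higher in wt and 2 in menin-null PILECs, while 0 of the 5 progenitor genes were. Among all genes tested 5.62% were called higher in wt and 4.22% in menin-null PILECs. Summed over the 4 neuron genes, the level was 45.2 and 61.4 RPM in wt and menin-null mESCs, and 117.9 and 113.0 RPM in wt and menin-null PILECs. The sums over the 5 progenitor genes were 86.3 and 114.9 RPM in the mESCs and 69.7 and 68.0 RPM in the PILECs. In wt cells nearly all of that net difference lay in Sox1, at 34.1 RPM in mESCs and 17.6 RPM in PILECs. Inputs were also higher in mESCs. Over the progenitor genes they summed to 15.8 and 10.4 RPM in wt and menin-null mESCs, and to 5.05 and 4.91 RPM in the PILECs. Over the neuron genes they summed to 6.83 and 9.08 RPM, and to 3.63 and 3.48 RPM. The H3K4me3 sums are not corrected for input, and its part in them was not tested.

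Tubb3, which encodes the neuronal β-tubulin of class III, is on chromosome 8 with its TSS at 125935324. Its window held 44 tags in wt mESCs and 106 in menin-null mESCs, or 18.1 RPM [13.1 to 24.3] and 30.1 RPM [24.7 to 36.5]. In PILECs it held 914 tags in wt and 832 in menin-null cells, or 48.7 RPM [45.6 to 51.9] and 47.1 RPM [43.9 to 50.4]. Both PILEC libraries were above both mESC libraries and the intervals of the 2 stages did not overlap. In PILECs Tubb3 had the highest level of the 9 genes, above that of 89.6% of all genes in wt and 89.9% in menin-null cells. The PILEC to mESC ratio was 2.69-fold in wt cells (log2 1.43 [0.99 to 1.90]) and was called higher, as was the ratio of 5.62% of the 21262 genes tested in this comparison. In menin-null cells it was 1.56-fold (log2 0.64 [0.35 to 0.95]) and was not called. Relative to the median of all genes the menin-null ratio was 0.97 on the log2 scale, and it was just called, at 1.00, when scaled by tags near TSSs.

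Dcx, which encodes doublecortin, a microtubule-associated protein of migrating young neurons, is on chromosome X with the TSS used here at 140367593 on the minus strand. It had 0 tags in wt mESCs and 1 tag in menin-null mESCs, at or below the 3 tags of each input. In PILECs it had 201 tags in wt and 204 in menin-null cells, which is 10.7 RPM [9.28 to 12.3] and 11.5 RPM [10.01 to 13.2]. No other gene of the 9 lacked tags in mESCs. Dcx was at least 8.68-fold higher in wt PILECs than in wt mESCs, taken against a floor of 3 tags in the mESC library, and the lower limit of its exact interval was 6.995-fold. The menin-null ratio rests on the single mESC tag and was 40.6-fold [7.201 to 1610]. Its PILEC level was still ordinary, above that of 52.6% of all genes in wt and 54.4% in menin-null cells.

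Map2, which encodes a microtubule-associated protein of dendrites, is on chromosome 1 with the TSS used here at 66222124. The window held 29 tags in wt mESCs (11.9 RPM [7.98 to 17.1]), 52 in menin-null mESCs (14.8 RPM [11.04 to 19.4]), 735 in wt PILECs (39.2 RPM [36.4 to 42.1]) and 660 in menin-null PILECs (37.3 RPM [34.5 to 40.3]). The intervals of mESCs and PILECs did not overlap in either genotype. Map2 was higher in PILECs by 3.28-fold in wt cells (log2 1.72 [1.18 to 2.30]) and by 2.52-fold in menin-null cells (log2 1.34 [0.93 to 1.77]).

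Stmn2, which encodes the neuronal microtubule regulator SCG10, is on chromosome 3 with its TSS at 8509527. In mESCs it held 37 tags in wt and 57 in menin-null cells, and in PILECs 364 and 302, or 15.2, 16.2, 19.4 and 17.1 RPM. These 4 levels lay close together, and every interval overlapped every other. The PILEC to mESC log2 ratios were 0.35 [-0.14 to 0.88] in wt and 0.08 [-0.34 to 0.51] in menin-null cells, and neither was called.

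**Figure D1:**
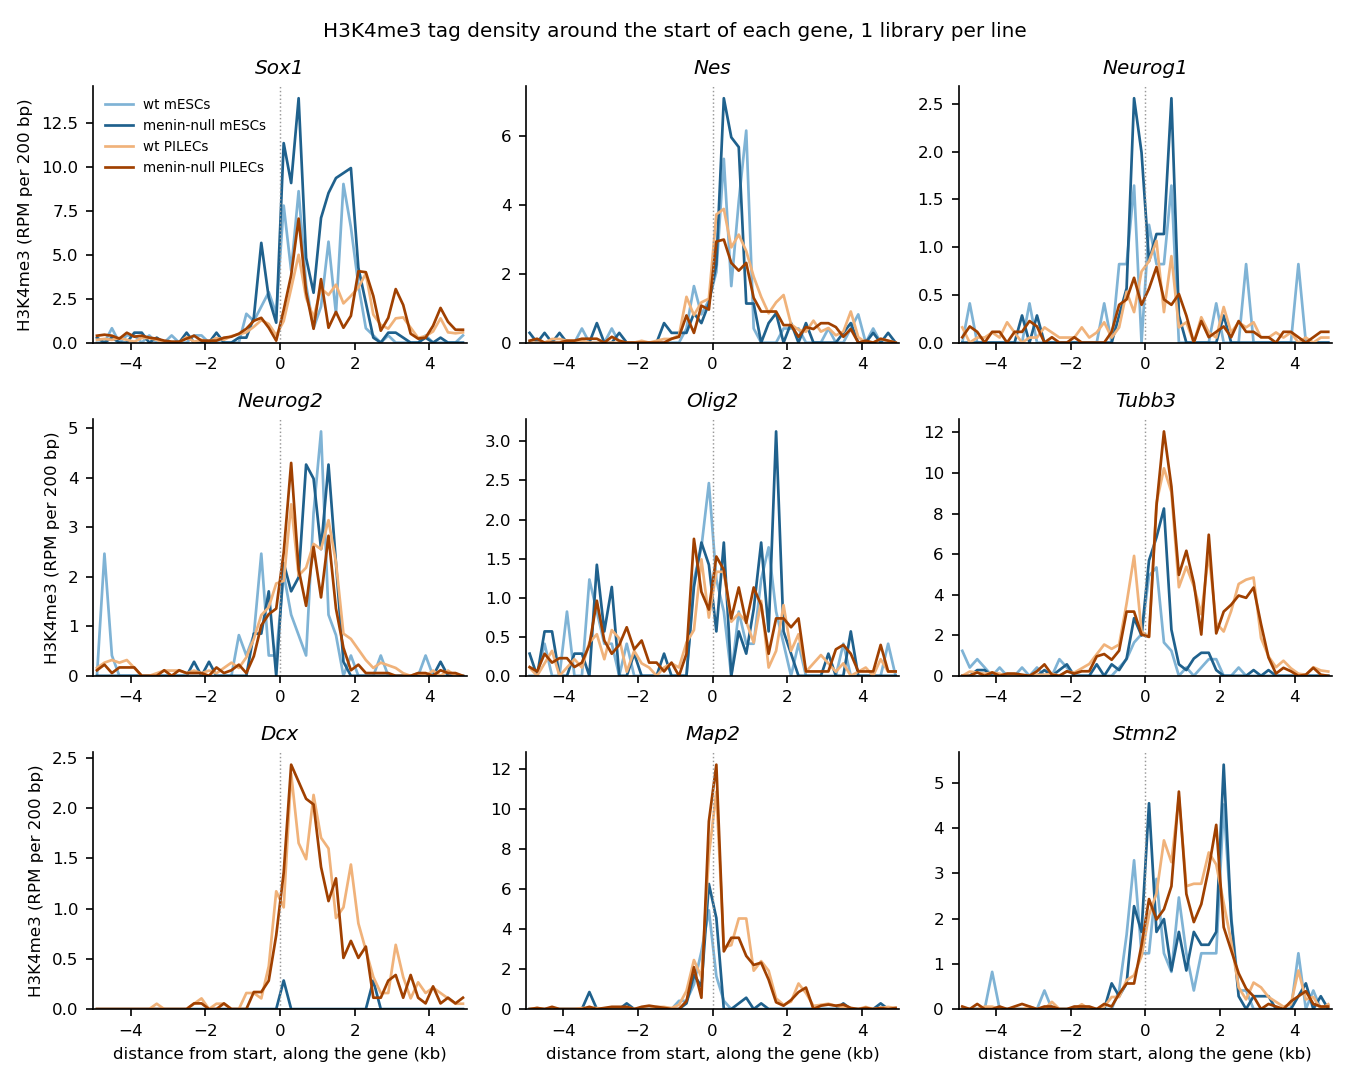
H3K4me3 at the 9 neural genes, in RPM per 200-bp bin, against the distance from the TSS in kb, for wt and menin-null mESCs and PILECs, with 5′ of the gene to the left. The Tubb3, Dcx and Map2 panels show PILEC signal that extends into the gene, as do others such as Sox1 and Nes, and Dcx shows no mESC peak.

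Sox1, a transcription factor of the early neural plate, had the opposite order. Its TSS is at 12395519 of chromosome 8. It held 83 tags in wt mESCs (34.1 RPM [27.2 to 42.3]), 187 in menin-null mESCs (53.2 RPM [45.8 to 61.4]), 330 in wt PILECs (17.6 RPM [15.7 to 19.6]) and 369 in menin-null PILECs (20.9 RPM [18.8 to 23.1]). Both mESC libraries were above both PILEC libraries, and the 4 intervals overlapped only between the PILEC genotypes. Sox1 was lower in menin-null PILECs than in menin-null mESCs, at 0.392-fold (log2 -1.35 [-1.61 to -1.09]), among the 18.2% of genes called lower in that comparison. The wt ratio was 0.515-fold (log2 -0.96 [-1.31 to -0.59]) and just missed 2-fold. With the scaling by tags near TSSs the menin-null ratio of Sox1 was -0.99 on the log2 scale and was no longer called.

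Neurog1, a proneural transcription factor, is on chromosome 13 with its TSS at 56353524. It had 19 and 40 tags in wt and menin-null mESCs and 96 and 84 in wt and menin-null PILECs, or 7.81, 11.4, 5.11 and 4.75 RPM. The PILEC levels were the lowest of the 9 genes. In menin-null cells Neurog1 was lower in PILECs at 0.418-fold (log2 -1.26 [-1.82 to -0.68]), a call that was lost at -0.90 with the scaling by tags near TSSs. In wt cells its log2 ratio was -0.61 [-1.33 to 0.18], and 0.11 with input tags subtracted. Neurog2, the related proneural factor on chromosome 3 (TSS 127336054), had 30, 62, 335 and 301 tags, or 12.3, 17.6, 17.8 and 17.0 RPM, with the stages close together. Its PILEC to mESC log2 ratios were 0.53 [-0.01 to 1.12] in wt and -0.05 [-0.45 to 0.37] in menin-null cells.

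Nes, which encodes the intermediate filament nestin of neural progenitors, is on chromosome 3 with the TSS used here at 87775051. In mESCs it had 57 tags in wt and 89 in menin-null cells, and in PILECs 394 and 282, or 23.4, 25.3, 21.0 and 15.9 RPM. The menin-null PILECs were the lowest. Nes was not called in either genotype, with log2 ratios of -0.16 [-0.56 to 0.27] in wt and -0.67 [-1.01 to -0.31] in menin-null cells. Olig2, a transcription factor of motor neuron and oligodendrocyte progenitors on chromosome 16 (TSS 91225795), had 21, 26, 154 and 167 tags, or 8.63, 7.39, 8.203 and 9.44 RPM. Its 4 levels were close, and its log2 ratios of -0.07 [-0.74 to 0.66] and 0.35 [-0.25 to 1.01] were not called.

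In all, 3 of the 9 genes (Tubb3, Dcx and Map2) were higher and 0 lower in wt PILECs than in wt mESCs, where 5.62% of the genes tested were higher and 12.8% lower. In menin-null cells 2 of the 9 (Dcx and Map2) were higher and 2 (Sox1 and Neurog1) lower, where 4.22% of 21642 genes were higher and 18.2% lower. The lower calls thus stand beside a background of nearly the same share. With windows of 500 bp to each side, the call of Tubb3 in wt cells (log2 0.68) and that of Map2 in menin-null cells (0.96) were lost, and Sox1 was called lower in wt cells (-1.28). With input tags subtracted, the menin-null ratio of Dcx stayed at 5.27 on the log2 scale but was no longer called. The menin-null stage log2 ratio minus the wt one was -0.39 [-0.82 to 0.04] for Sox1 and -0.63 [-1.51 to 0.26] for Neurog1, by normal approximation. Both intervals held 0, so that the stage ratios of these 2 genes at the start are not shown to differ between genotypes.

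**Figure D2:**
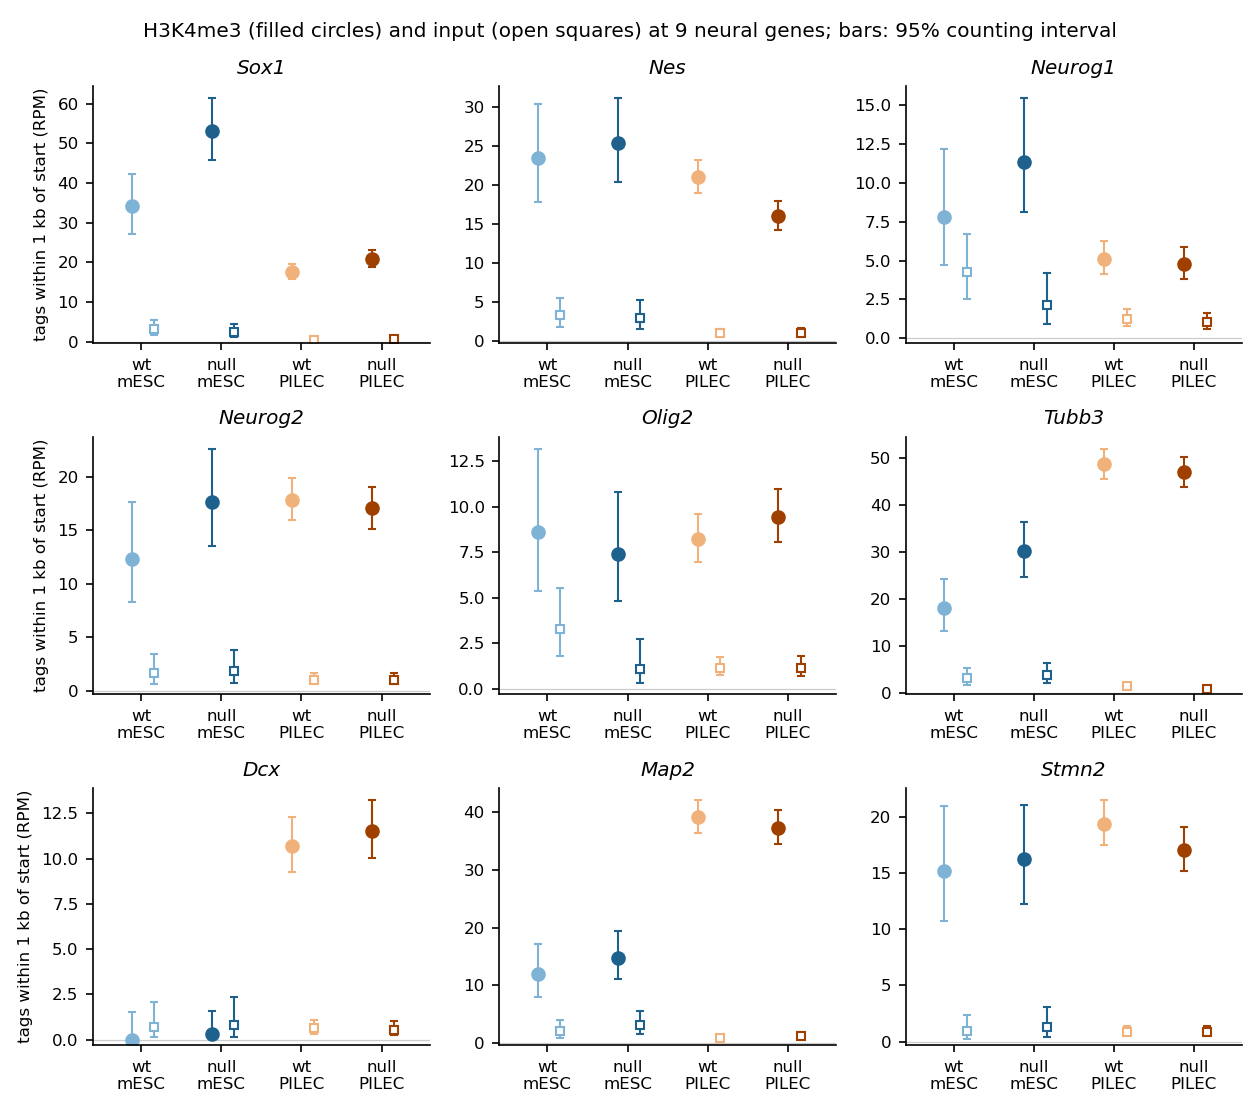
H3K4me3 (filled) and input (open) levels within 1 kb of the TSS, in RPM, for the 9 genes in the 4 kinds of cells, with exact 95% Poisson intervals. In both PILEC libraries the levels of all 9 genes lie above their inputs, and Tubb3 is the highest at 48.7 and 47.1 RPM.

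Against input chromatin, all 9 genes were called enriched in wt and in menin-null PILECs, where 59.2% and 58.5% of all genes tested were. The folds over input in wt and menin-null PILECs were 37.0 and 56.8 for Tubb3, 46.5 and 29.4 for Map2, 30.4 and 31.5 for Sox1, and 23.0 and 20.6 for Stmn2. Nes stood at 21.0 and 16.1, Neurog2 at 17.0 and 16.2, Dcx at 17.0 and 20.9, Olig2 at 7.09 and 8.15, and Neurog1 at 4.05 and 4.53. Olig2 and Neurog1 were thus marked least. Among the genes with at least 10 tags in mESCs, 7 of 8 of the neural genes were enriched in wt cells (background 84.2%) and 8 of 8 in menin-null cells (background 85.4%). Dcx had fewer tags in both, and Neurog1 in wt mESCs was 1.84-fold [0.916 to 3.72] over input.

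**Figure D3:**
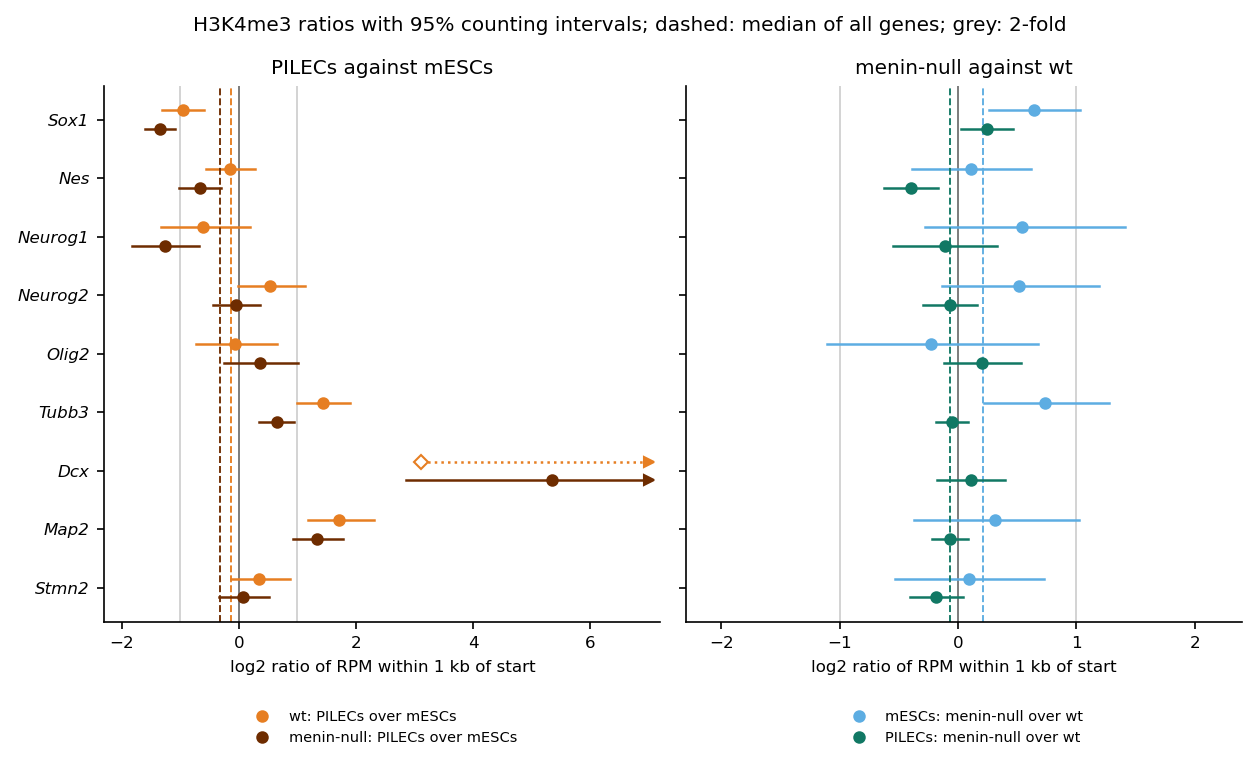
Log2 ratios of RPM within 1 kb of the TSS with 95% counting intervals, for PILECs over mESCs (left) and menin-null over wt cells (right), with dashed lines at the median of all genes. The open diamond is the Dcx bound against 3 tags, and Dcx is not drawn for mESC genotypes, where it had 0 and 1 tags. Only Tubb3, Dcx and Map2 lie beyond 2-fold to the right, while the genotype ratios all lie within 2-fold.

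Between the menin-null and wt libraries, no gene with enough tags differed by 2-fold, which covers all 9 genes in PILECs and 8 in mESCs. In PILECs 0 of 9 were called, where 1.31% of 24041 genes were higher and 1.39% lower in menin-null cells. The menin-null over wt log2 ratio was -0.05 [-0.19 to 0.09] for Tubb3, -0.07 [-0.22 to 0.08] for Map2, 0.11 [-0.18 to 0.40] for Dcx and -0.18 [-0.41 to 0.04] for Stmn2. The intervals of these 4 neuron genes leave out any difference of 1.5-fold. Neurog2 at -0.07 [-0.30 to 0.16], Neurog1 at -0.11 [-0.55 to 0.33] and Olig2 at 0.20 [-0.12 to 0.53] had intervals that held 0. Those of Nes at -0.40 [-0.62 to -0.17] and Sox1 at 0.25 [0.03 to 0.47] did not, both by less than 2-fold, and that of Sox1 turned to -0.09 at 2 kb to each side.

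In mESCs 0 of the 8 genes with at least 10 tags were called, where 0.828% of 16179 genes were higher and 0.902% lower in menin-null cells. Dcx had too few tags. Sox1 at 0.64 [0.26 to 1.03] and Tubb3 at 0.74 [0.22 to 1.28] had intervals that left out 0. The others were 0.54 [-0.28 to 1.41] for Neurog1, 0.52 [-0.14 to 1.195] for Neurog2, 0.31 [-0.37 to 1.02] for Map2, 0.11 [-0.38 to 0.62] for Nes, 0.09 [-0.53 to 0.73] for Stmn2 and -0.22 [-1.11 to 0.68] for Olig2. Relative to the median of all genes, Sox1 stood at 0.43 and Tubb3 at 0.52. Both are on chromosome 8, whose input ratio of menin-null to wt mESCs lay 0.20 above the median of the autosomes on the log2 scale. Within 50 kb of the TSS the input ratio was 0.12 [-0.09 to 0.32] at Sox1 and 0.16 [-0.03 to 0.36] at Tubb3, while at Olig2 it was -0.34 [-0.61 to -0.07], and the part of the input in the H3K4me3 ratios was not tested.

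The genotype ratio of Tubb3 in PILECs differed from that in mESCs by -0.78 [-1.30 to -0.25] on the log2 scale, with an interval by normal approximation, and it was the only one of the 9 whose interval left out 0. Among all 24365 genes tested, 21.6% had such an interval on the lower side and 1.82% on the higher side, and the median was -0.25. With the scaling by tags near TSSs 0 of the 9 did, while more than Tubb3 alone did at 2 kb, at 500 bp, with 1 tag per position and at the 5′ end of the tag. The differences of the other genes ran from -0.95 [-5.57 to 3.68] for Dcx to 0.43 [-0.45 to 1.31] for Olig2.

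H3K4me3 of the neuron genes in PILECs did not stop at the first kilobase, nor did that of the progenitor genes other than Neurog1, given further below. From 1 to 5 kb downstream of its TSS, a stretch that holds no annotated exon, Tubb3 had 7 tags in wt mESCs and 15 in menin-null mESCs, and 871 and 802 in wt and menin-null PILECs. That is 2.88 and 4.26 RPM against 46.4 and 45.4 RPM. These 4 kb held nearly as many PILEC tags as the 2 kb around the start. It was higher in PILECs by 16.1-fold in wt (log2 4.01 [2.96 to 5.33]) and by 10.6-fold in menin-null cells (log2 3.41 [2.68 to 4.25]). Over input the same stretch stood at 21.0-fold and 25.7-fold in the PILECs and at 0.940-fold and 0.761-fold in the mESCs. No mESC mark above input was thus seen in this stretch of Tubb3. The mESC counts there were few, with intervals over input of 0.318 to 2.54 in wt and 0.365 to 1.55 in menin-null cells. The stage ratio over the gene body was larger than that at the start in both genotypes.

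Where the wt mESCs had 0 tags, the bound is again against 3 tags, and the exact lower limits are given as log2 values. Map2 had 0 and 3 tags downstream in the mESCs, wt first, and 200 and 175 in the PILECs. It was at least 8.64-fold higher in wt PILECs (exact limit 2.799), and the menin-null ratio was 11.6-fold, with a log2 interval of 1.97 to 5.83. Dcx had 0, 1, 203 and 144 tags, at least 8.77-fold higher in wt PILECs (exact limit 2.82), with a menin-null log2 ratio of 4.84 [2.34 to 10.15]. Stmn2 differed from these 3. It had 35, 59, 423 and 351 downstream tags, or 14.4, 16.8, 22.5 and 19.8 RPM, and was already 4.70-fold and 6.98-fold over input in wt and menin-null mESCs.

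Among the progenitor genes, Sox1 kept a broad mark in every library, with 75, 188, 611 and 588 downstream tags, or 30.8, 53.5, 32.5 and 33.3 RPM. Its stage log2 ratio there was 0.08 [-0.27 to 0.44] in wt and -0.68 [-0.92 to -0.44] in menin-null cells, and neither was called. These intervals did not overlap, before any scaling by tags near TSSs. That scaling moved the median over all genes at the start from -0.14 to -0.11 in wt and from -0.33 to 0.03 in menin-null cells. With shifts of that size the Sox1 intervals overlap, so its downstream stage ratio is not shown to differ between genotypes. Nes had 9, 18, 207 and 149 tags and was called higher in wt PILECs at 2.98-fold (log2 1.58 [0.62 to 2.72]), while its menin-null log2 ratio of 0.72 [0.01 to 1.51] was not. Neurog1 had 5, 1, 42 and 36 tags, and its call in menin-null cells (log2 2.84 [0.27 to 8.18]) rests on that single mESC tag. At 1.15-fold and 0.971-fold of input the Neurog1 PILEC values were not above input there. The other progenitor genes were above input there in wt and menin-null PILECs. Sox1 stood at 15.1-fold and 16.3-fold, Neurog2 at 7.09-fold and 4.52-fold, Nes at 4.56-fold and 3.55-fold, and Olig2 at 3.11-fold and 3.46-fold. In wt and menin-null mESCs Sox1 stood at 6.89-fold and 10.5-fold of input. Neurog2 had 20, 34, 217 and 128 tags and Olig2 stood at 5.76, 7.96, 4.90 and 7.07 RPM, and neither was called. The stretch from 1 to 5 kb runs past the end of Neurog1 (1659 bp long), Neurog2 (2496 bp), Olig2 (3128 bp) and Sox1 (4037 bp). At Nes and the neuron genes it lies inside the gene, so the downstream values do not read the same part of each gene.

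Downstream, 4 of 9 genes were thus called higher in wt PILECs (Nes, Tubb3, Dcx and Map2) and 0 lower, where 9.77% of 23851 genes were higher and 2147 genes lower. In menin-null cells 4 of 9 were higher (Neurog1, Tubb3, Dcx and Map2) and 0 lower, where 10.2% were higher and 10.4% lower. The median log2 ratio was 0.61 over the 9 genes and -0.14 over all genes in wt cells, and 0.65 and 0.04 in menin-null cells. Between genotypes 0 of 9 were called downstream in PILECs, where 1.86% of genes were higher and 1.79% lower, and 0 of the 6 with enough tags in mESCs, where 3.39% and 2.62% were. Within 2-fold, Neurog2 at -0.68 [-1.002 to -0.35], Dcx at -0.41 [-0.73 to -0.09] and Nes at -0.39 [-0.70 to -0.08] had fewer tags in menin-null PILECs, and Olig2 at 0.53 [0.13 to 0.93] had more.

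**Figure D4:**
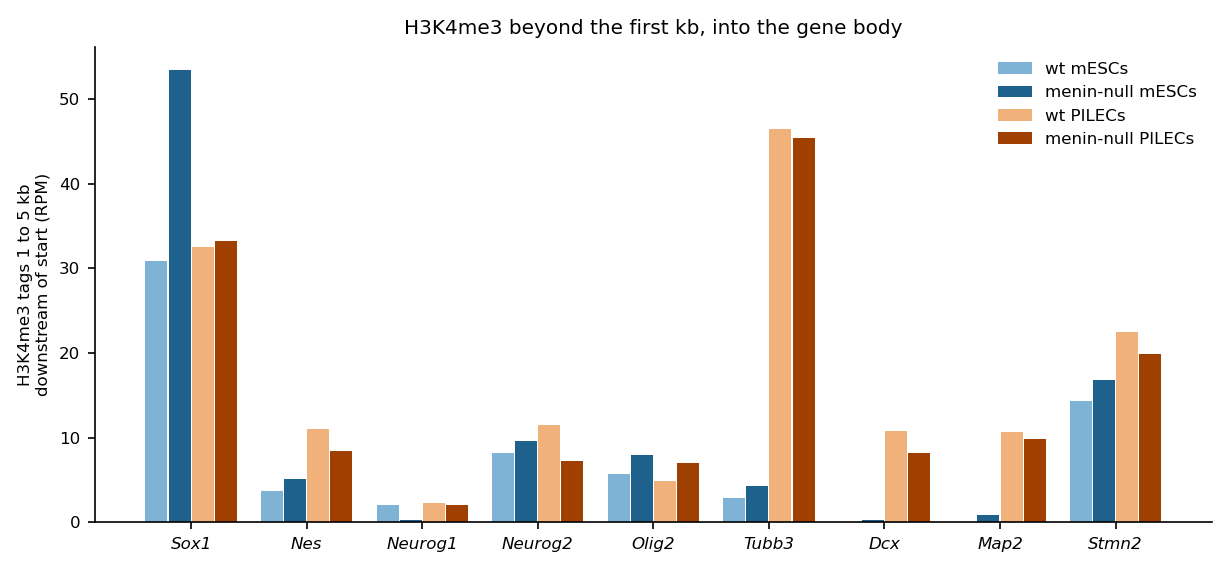
H3K4me3 from 1 to 5 kb downstream of the TSS, in RPM, for the 9 genes in the 4 kinds of cells, with 1 bar per library from 0. Tubb3 stands at 46.4 and 45.4 RPM in PILECs and at 2.88 and 4.26 RPM in mESCs, and Dcx and Map2 are near 0 in mESCs.

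Width was read as a further property of the mark, as the run of 500-bp bins with at least 1 RPM that touches the TSS. Tubb3 was 1500 bp wide in wt mESCs and 2500 bp in menin-null mESCs, and 5500 bp and 5000 bp in wt and menin-null PILECs, which was wider than 97.8% and 97.6% of the marked genes there. Dcx went from 0 bp in both mESC libraries to 3000 bp in both PILEC libraries, and Map2 from 1500 bp in both to 3500 bp and 2500 bp. Sox1 was 3500 bp wide in both mESCs and 4500 bp and 5000 bp wide in PILECs, although its level at the start was lower there in menin-null cells. Nes was 2000, 2500, 4000 and 3000 bp wide, and Stmn2 3500, 3000, 3500 and 3500 bp. The median over the 9 genes was 2000 and 2500 bp for wt and menin-null mESCs and 3500 and 3000 bp for the PILECs, and 2000 bp over all marked genes in each library. A bin of the mESC libraries passes 1 RPM with few tags, and Nes in the menin-null mESC input reached 2500 bp by the same rule, so the mESC widths are the less certain ones.

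Map2 has 23 annotated starts, and PILECs carried H3K4me3 at 2 further places inside the gene, which were picked after their values were seen. At 66368676 the window held 131 and 97 tags in wt and menin-null PILECs, at 6.03-fold and 7.65-fold over input, and 3 and 1 in mESCs. At 66433552 it held 162 and 113 tags, at 9.65-fold and 5.26-fold over input, and 1 tag in each mESC library. At this last start the menin-null over wt log2 ratio in PILECs was -0.43 [-0.79 to -0.08], while that at the start used above was -0.07.

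The wider neural lists, 32 other genes of progenitors and 34 of neurons, were written with earlier results of these data known. In wt cells 14 of the 34 neuron genes were called higher in PILECs and 3 lower, with a median log2 ratio of 0.77 against -0.14 over all genes. Of the 32 progenitor genes 9 were higher and 4 lower, with a median of 0.13. In menin-null cells 15 neuron genes were higher and 5 lower (median 0.87, against -0.33 over all genes), and 6 progenitor genes were higher and 6 lower (median -0.24). The 11 lower calls of both lists became 7 with the scaling by tags near TSSs. The backgrounds are those given above, 5.62% higher and 12.8% lower in wt and 4.22% and 18.2% in menin-null cells. Over input, 64 of the 66 genes were enriched in wt and 61 in menin-null PILECs, where 59.2% and 58.5% of all genes tested were. Many were already enriched in mESCs. With no minimum of tags, 50 and 51 of the 66 were enriched in wt and menin-null mESCs, as were 14606 and 14647 of all 26226 genes. As for the 9 genes, the neuron genes had the larger share of higher calls.

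Among the neuron genes, Myt1, a zinc-finger factor of differentiating neurons, had 5 tags in wt mESCs and 371 in wt PILECs (log2 3.27 [2.03 to 4.90]) and 3 and 332 in menin-null cells (log2 4.46 [2.90 to 6.75]). Snap25, a synaptic SNARE protein, was higher in wt PILECs by 5.61-fold, and Gap43, a growth cone protein, in menin-null PILECs by 6.13-fold. Nhlh1, a neuronal bHLH factor, had 0 tags in wt mESCs and 92 in wt PILECs. The LIM factor Isl1 (log2 -1.17) and the neurofilament gene Ina (log2 -1.01) were lower in wt PILECs, and Nefh (log2 -1.71) and Th (log2 -1.50) in menin-null PILECs. Among progenitor genes, Zic1, a zinc-finger factor of the dorsal neural tube, had 8 tags in wt mESCs and 616 in wt PILECs (9.98-fold), and 4 and 450 in menin-null cells (22.4-fold). Fabp7, the brain fatty acid binding protein of radial glia, was higher by 12.4-fold and 6.71-fold. The POU factor Pou3f3 was higher in wt PILECs by 7.41-fold and Sox9 in menin-null PILECs by 6.13-fold. Pou3f1 was lower in both (log2 -1.38 and -2.05), as was Olig3 (log2 -1.11 and -2.55).

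Between genotypes the wider lists had few calls in PILECs, with 0 of 66 genes higher and 2 lower in menin-null cells, where 1.31% of all genes were higher and 1.39% lower. These were Gbx2, a homeobox factor of the midbrain-hindbrain boundary, with 28 tags in wt and 13 in menin-null PILECs (log2 -1.02 [-2.09 to -0.02], and -0.93 and not called with the scaling by tags near TSSs), and Nhlh2, a neuronal bHLH factor, with 93 and 34 (log2 -1.37 [-1.98 to -0.78]). In mESCs 4 of 60 tested genes were higher in menin-null cells (Pou3f3, Pax3, Stmn3 and Eno2, by 2.10-fold to 2.77-fold) and 2 lower (Gap43 and Neurod1), and 2 were higher with the scaling by tags near TSSs. The mESC background was 0.828% higher and 0.902% lower.

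**Figure D5:**
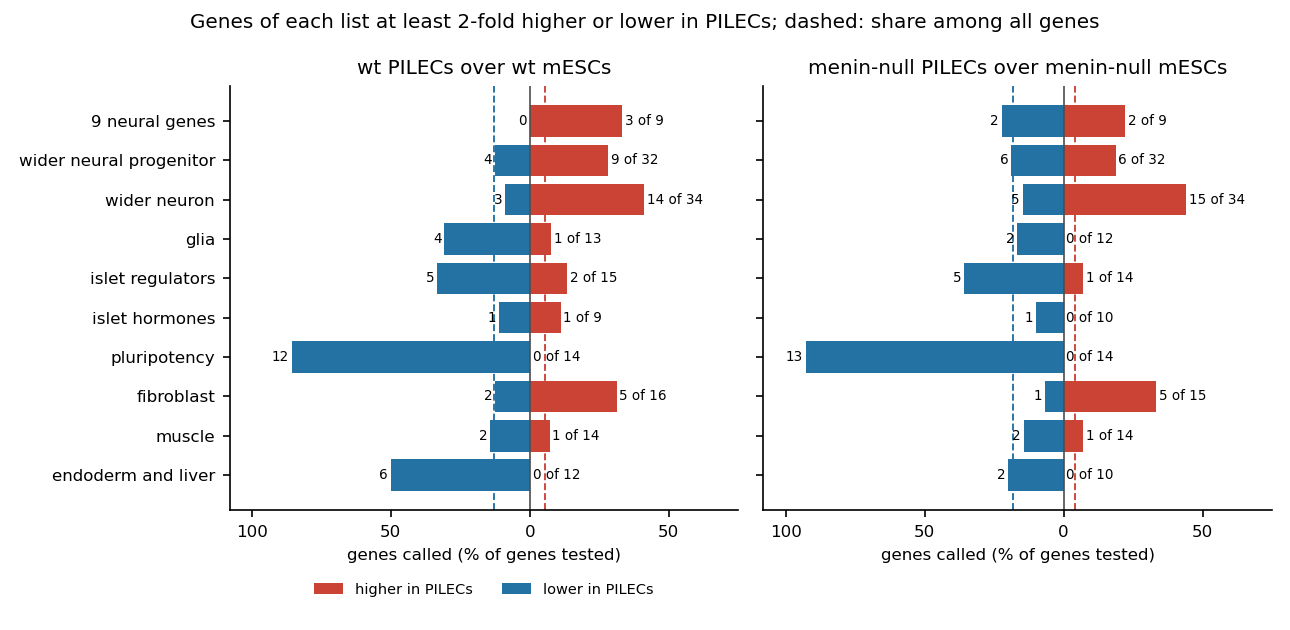
Share of the tested genes of each list called higher (right) or lower (left) in PILECs than in mESCs, in percent, for wt and menin-null cells, with counts beside the bars and dashed lines at the share among all genes. The wider neuron list has 14 and 15 of 34 genes higher, and the pluripotency list 12 and 13 of 14 lower.

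Markers of other cell types give the setting of these values. Of 13 glia genes 1 was higher in wt PILECs (Slc1a2, a glutamate transporter) and 4 were lower, and 0 of 12 higher and 2 lower in menin-null cells. With 500 bp to each side Slc1a2 (log2 0.89) was no longer called. Read from the 5′ end of the gene, the lower calls of Gfap in wt (-0.49) and menin-null cells (-0.33) and of Aldh1l1 in wt cells (-0.95) were lost. With the scaling by tags near TSSs Gfap in menin-null cells (-0.80) was not called either. The defining markers Gfap and Sox10 had 12 and 13 tags in wt and 27 and 20 in menin-null PILECs, where the inputs held 25 and 11 and 26 and 14, and 5 of 13 glia genes were enriched over input in either. Of 15 islet regulators 5 were lower in wt PILECs, among them Pdx1 with 20 tags (log2 -2.80) and Neurog3 with 42 (log2 -2.46). In menin-null cells 5 of 14 were lower. Neurod1 is both in this list and in the wider neuron list, so the lists are not fully separate. Since neurons and islet endocrine cells share many regulators, a higher call in the neuron list does not by itself tell neural from islet cells. Of the tested genes for islet hormones and their processing, 1 of 9 was higher (Pcsk2, a prohormone convertase, with 23 tags in wt mESCs and 493 in wt PILECs, or 2.78-fold) and 1 lower (Ppy) in wt PILECs, and 0 of 10 higher and 1 lower (Sst) in menin-null PILECs. With 500 bp to each side, Pcsk2 (log2 0.87) and Ppy (-0.95) were no longer called. Over input, 13 of 15 islet regulators and 4 of 12 islet hormone genes were enriched in both PILECs, where 59.2% and 58.5% of all genes tested were enriched. Fibroblast genes had 5 of 16 higher in wt and 5 of 15 in menin-null PILECs, among them Col3a1 with 115 and 76 tags and Dcn with 54 and 40, while 2 were lower in wt (Twist2 at log2 -1.29 and Thy1 at -1.24) and 1 in menin-null PILECs (Thy1 at -1.28, and 0 with the scaling by tags near TSSs, where Thy1 was at -0.92). The median log2 ratio of the fibroblast list was 0.60 in wt and 0.58 in menin-null cells, and that of the 66 wider neural genes 0.60 and 0.49. Higher calls were thus not particular to the neural lists. The summed level of the fibroblast list was 183.4 and 199.3 RPM in wt and menin-null mESCs and 216.0 and 191.1 RPM in the PILECs, and that of the wider neuron list was 533.2 and 669.0 RPM and then 770.1 and 819.7 RPM. Their part in the neural values was not tested.

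For each of the 9 genes, the gene outside all lists with the most similar level over the 4 H3K4me3 libraries was found, by the distance of log2 levels with 1 tag added. It was Ddah2 for Tubb3 (distance 0.14), with 46, 107, 906 and 908 tags, and Fam165b for Map2 (0.18), with 32, 56, 727 and 683. Dcx, with 5330434G04Rik at a distance of 0.65, had the least similar nearest gene. The others were Pltp for Sox1 (0.15), Bckdhb for Nes (0.09), Onecut3 for Neurog1 (0.22), Fads3 for Neurog2 (0.12), 1700003M07Rik for Olig2 (0.20) and Aif1l for Stmn2 (0.03). With 4 libraries many genes have a near neighbour, and the distances are a description.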

How the data were processed

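H3K4me3 ChIP and input DNA of about 250 bp was sequenced in 8 libraries on an Illumina GAII. The authors aligned 36-bp reads to mm9, kept those with a unique location, and deposited 1 line per tag with its position, its strand and a further score. The values are thus unnormalized positions. The deposited score, a whole number from 4 to 119 that no source used here explains, was looked at and was not used. The methods allow at most 2 mismatches, but 1.04% to 1.81% of the tags listed more and were kept. Repeats of a tag at 1 position and strand were 4.17% of H3K4me3 tags in menin-null mESCs and 11.4% to 11.5% elsewhere, and were kept, so intervals that assume independent tags cover counting error only. The aligner is not given in the sources used here.

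Tags were moved 125 bp to the middle of the 250-bp fragment and counted in Python 3.11.15 (scipy 1.17.1, numpy 2.4.6, pandas 2.3.3), with matplotlib 3.10.9 for plots. GENCODE starts on NCBIM37, the assembly of mm9, gave 26225 protein-coding, lincRNA and processed-transcript genes. Sox1 has no gene there and was placed by the only exact match of its 300-base RefSeq promoter (GRCm38.p6), and Map2 is listed as Mtap2. The TSS of a gene was its annotated start with the highest RPM summed over the 4 H3K4me3 libraries. Ratios were tested only with at least 10 tags in both libraries together, which left out Dcx between mESC genotypes. Intervals of ratios were exact conditional binomial (Clopper-Pearson) at 95%, those of levels exact Poisson. The difference of genotype ratios between stages used a normal approximation with 0.5 added to each count. List medians and medians over all genes were taken over ratios with 1 tag added to each count. With 1 library per group there is no replicate check and no p-value. The intervals and calls were tested on simulated independent Poisson counts with known 4-fold changes at genes with many expected tags. Repeat tags, smaller changes and changes at low counts were not simulated, so the test does not cover them. The binning of profiles was tested on made-up positions, and the counting of tags in windows was not.

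Members and lists were chosen with earlier results of these data known. Genes named from lists are, by rule, up to 3 called genes with the largest and up to 3 with the smallest ratio in each comparison, and Gfap and Sox10 are among them. The islet regulators called higher are not reported here by name. Alternatives changed the window, scaling, duplicates, tag position, choice of start, input, fold, mismatches and bin threshold. Sequences are from NCBIM37, and no RefSeq promoter is printed.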

Additional observations from a re-analysis of the deposited data

Results flagged for a closer look

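The genotype ratio of Tubb3, menin-null over wt, was 0.74 on the log2 scale in mESCs and -0.05 in PILECs, and the difference of -0.78 [-1.30 to -0.25] left out 0 by its counting interval. No replicate stands behind either value, 21.6% of all genes had such an interval on the same side, and the difference was not past its interval when libraries were scaled by tags near TSSs.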

How the results depend on the processing

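No paired analysis was possible because each group has 1 library, and no library could be left out for the same reason. Of 360 ratios of the 9 genes under 10 alternatives, 339 kept their side of the threshold, although some that were not called changed sign, 9 lost their call, 8 gained one and 4 moved, and the cause of each change was not tested. With 500 bp to each side, Tubb3 in wt cells (log2 0.68) and Map2 in menin-null cells (0.96) were no longer called, so 1 gene was higher in menin-null cells, and Sox1 was called lower in wt cells (-1.28), the only 1. Tubb3 in menin-null cells was called at 2 kb (1.06) and with the scaling by tags near TSSs (1.00), which left 0 genes lower in menin-null cells. A fold of 3 left 1 gene higher and 0 lower in menin-null cells, and input subtraction 1 higher (Dcx at 5.27 was lost). A fold of 1.5 gave 2 genes higher in menin-null mESCs and 1 lower in wt PILECs, and downstream 1 lower in menin-null PILECs against mESCs, 1 lower between PILEC genotypes and 1 higher between mESC genotypes.

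Genes whose genotype ratio differed between stages, 1 as given, were 4 at 2 kb, 2 at 500 bp, 0 with the scaling by tags near TSSs, 2 with 1 tag per position and 3 at the 5′ end of the tag. The median width at a threshold of 2 RPM was 1500 bp in menin-null mESCs, 2500 bp in wt PILECs and 2000 bp in menin-null PILECs.

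Of the 66 genes of the wider neural lists, the scaling by tags near TSSs gave 7 lower in menin-null PILECs against mESCs, 1 lower between PILEC genotypes and 2 higher between mESC genotypes. Between PILEC genotypes 500 bp gave 1 higher and 4 lower, and the 5′ end of the tag 1 lower. Between mESC genotypes 1 was lower at 2 kb, at the 5′ end of the tag and with at most 2 mismatches. Of 256 ratios of neural list genes named by rule, 205 kept their call, 46 lost it and 5 turned. Those were Dlx1 in wt cells (0.51) and Rbfox3 in wt and menin-null cells (0.30 and 1.92) when each gene was read from its 5′ end, and Rbfox3 at 2 kb (2.46 and 1.81). The downstream, mismatch and listed-gene alternatives were chosen after seeing the data. Enrichment over input with the scaling by tags near TSSs was not run. The mESC depth limits every comparison with mESCs.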

Other observations

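No annotated start of another gene lay within the counting window of any of the 9 genes, while the Tubb3 start lies inside the model Gm20388 and the Sox1 start inside Gm5607, so tags there cannot be assigned to 1 gene alone. Men1 itself held 64 tags within 1 kb of its TSS in wt and 137 in menin-null mESCs, and 867 and 783 in the PILECs, a start outside the exons without input tags. Dlx1, a homeobox factor of forebrain interneurons, and Rbfox3, which encodes the neuronal nuclear antigen NeuN, were called lower in wt PILECs at the start used (log2 -1.25 and -1.30), but both turned when each gene was read from its 5′ end (0.51 and 0.30), and Rbfox3 also turned at 2 kb (2.46).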
